A study of Homo sapiens with 14 samples.

Results

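The BCL2 family decides whether a cell opens its mitochondria and dies by apoptosis, and 10 of its genes were followed here. They were chosen by symbol, for their place in the family, and are BCL2, BCL2L1, MCL1, BAX, BAK1, BID, BAD, BCL2L11, PMAIP1 and BBC3. They make up 10 of the 58440 genes listed for each of 14 RNA-seq libraries. Each library came from a sample of 1000000 cells in which HEK-293T and Jurkat cells were mixed, with 100%, 80%, 60%, 50%, 40%, 20% or 0% HEK cells and the rest Jurkat. There were 2 libraries for each of the 7 mixtures, and they are called technical replicates by the submitters, so that every p-value below measures the spread between libraries and not between cultures.

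HEK-293T is an adherent line from human embryonic kidney that carries the SV40 large T antigen, and it was grown in DMEM. Jurkat cells are leukemic human T cells kept in suspension, and their medium was RPMI. Neither line was treated with any agent, both were taken 2 days after passage, and line and culture medium cannot be told apart. Messenger RNA was captured on oligo(dT) beads, and a fixed amount of ERCC spike-in RNA was added to it before cDNA was made. The study built these samples to see how a difference in RNA content per cell enters the analysis of mixtures. The comparisons here ask how the 10 genes differed between the pure lines and where the mixtures lay between them.

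In the textbook scheme, the effector proteins BAX and BAK1 form pores in the outer mitochondrial membrane, through which cytochrome c leaves and activates caspases. The survival proteins BCL2, BCL-xL (from BCL2L1) and MCL1 hold the effectors in check. The BH3-only proteins start the process, either by activating the effectors (BID, BIM from BCL2L11 and PUMA from BBC3) or by occupying the survival proteins (BAD and NOXA from PMAIP1). The survival proteins are known to matter in lymphoid cells, where BCL2 was first found at a translocation. Transcript levels, which are all that was measured here, do not give the amount of these proteins, several of which are controlled by cleavage, phosphorylation or rapid turnover.

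The libraries held 4468822 to 28303668 counts on genes, with a median of 13505082, and the pure Jurkat libraries were the shallowest. The lines were checked with 12 marker genes each. All 12 genes of the HEK list were higher in the pure HEK libraries. All 12 T cell genes of the Jurkat list were higher in the pure Jurkat libraries. The T cell markers summed to 16.2 to 20.4 counts per 1000000 gene counts (CPM) in pure HEK and to 3000 to 3381 CPM in pure Jurkat, and CD3E, CD247, ZAP70, CD28 and CD5 had at most 3 counts in each pure HEK library. The file names fall into 2 groups, one with 8 libraries and one with 6, whose meaning is not given in the sources used here. Pure Jurkat belonged wholly to the group of 8 and pure HEK wholly to the group of 6, so line and file-name group cannot be told apart between the pure lines.

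Between the pure lines, BBC3 and PMAIP1 were higher in HEK, BID and BCL2L1 were higher in Jurkat, and the other 6 genes did not pass the test. These 4 of 10 genes, 2 in each direction, are to be read against all 15794 genes tested with edgeR's quasi-likelihood fit, of which 24.2% were called higher in HEK and 19.0% higher in Jurkat at an adjusted p under 0.05. The 10 genes were thus called about as often as genes in general. In 5 of the 10 genes the pure HEK and the pure Jurkat CPM did not overlap, while 74.8% of all genes tested showed no overlap. The median log2 fold change of HEK over Jurkat was -0.26 over the 10 genes and 0.07 over all genes tested.

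The regions just before the starts of the 4 genes called are shown, since they are the stretches in which promoter elements are usually looked for and the genes moved in pairs. Each is the 250 bases before the outermost start annotated for the gene by GENCODE, read 5′ to 3′ from GRCh38 on the gene's own strand. Capitals mark matches on either strand to 4 motifs. The first is the GC box, GGGCGG. The next is the CCAAT box, searched by the letters of its name. Then come the TATA box, TATAAA, and the cyclic AMP response element, TGACGTCA. The start used in these cells was not measured.
BBC3, chr19:47232767-47233016, minus strand: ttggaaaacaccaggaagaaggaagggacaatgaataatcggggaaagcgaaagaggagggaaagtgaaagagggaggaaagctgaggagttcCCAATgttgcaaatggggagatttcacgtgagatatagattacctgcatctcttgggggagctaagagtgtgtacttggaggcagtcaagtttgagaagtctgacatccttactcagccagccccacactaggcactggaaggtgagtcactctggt
PMAIP1, chr18:59899746-59899995, plus strand: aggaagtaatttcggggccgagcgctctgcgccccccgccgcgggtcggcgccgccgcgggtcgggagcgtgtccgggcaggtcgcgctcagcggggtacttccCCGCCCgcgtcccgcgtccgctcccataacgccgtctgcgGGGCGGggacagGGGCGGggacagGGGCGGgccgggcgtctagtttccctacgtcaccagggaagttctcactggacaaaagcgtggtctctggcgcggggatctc
BID, chr22:17774771-17775020, minus strand: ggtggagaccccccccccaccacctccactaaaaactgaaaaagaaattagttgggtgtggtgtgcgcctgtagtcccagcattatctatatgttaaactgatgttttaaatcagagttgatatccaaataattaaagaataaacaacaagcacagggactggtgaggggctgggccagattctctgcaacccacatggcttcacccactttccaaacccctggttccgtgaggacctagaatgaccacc
BCL2L1, chr20:31723990-31724239, minus strand: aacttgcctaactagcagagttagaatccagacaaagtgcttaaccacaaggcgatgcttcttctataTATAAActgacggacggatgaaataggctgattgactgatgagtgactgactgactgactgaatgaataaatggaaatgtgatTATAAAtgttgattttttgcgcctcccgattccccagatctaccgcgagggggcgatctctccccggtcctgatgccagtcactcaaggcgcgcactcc
The genes of a pair did not share these letters. PMAIP1 had 4 GC boxes and a GC content of 72.8%, whereas BBC3 had 1 CCAAT box, no GC box and a GC content of 48.4%. BCL2L1 had 2 TATA boxes and BID had no match of any kind, with GC contents of 46.8% and 47.2%. Among the same windows of 20018 protein-coding genes, 49.0% held a GC box, 33.3% a CCAAT box, 10.0% a TATA box and 1.89% the cyclic AMP response element, and the median GC content was 59.6%. In 9.33% of these windows there were 4 or more GC boxes. None of the 4 windows held the cyclic AMP response element, which says only that its letters are not in these windows.

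BBC3 encodes PUMA, a BH3-only protein that binds all the survival proteins. Its level was 35.0 and 29.4 CPM in pure HEK and 7.38 and 8.54 CPM in pure Jurkat. The lines did not overlap, and BBC3 had the lowest adjusted p of the 10 genes, with a log2 fold change of 1.78 (SE 0.238, adjusted p = 0.00454). The difference rested on 331 and 445 counts in HEK against 33 and 53 counts in Jurkat. It stayed past the threshold under each scaling, filter, tool and left-out library that was tried. The gene lies on chromosome 19 from 47220822 to 47232766 on the minus strand, and the 2 microRNA genes annotated inside it had no counts.

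PMAIP1 encodes NOXA, a BH3-only protein that mainly binds MCL1. It gave the highest CPM of the 10 genes in every library, with 268.9 and 233 CPM in pure HEK and 127 and 78.0 CPM in pure Jurkat. The lines did not overlap, although the pure Jurkat libraries differed from each other as well. The log2 fold change was 1.07 (SE 0.291, adjusted p = 0.0346). This call was lost without either HEK library (adjusted p = 0.142 and 0.0951), without Jurkat library 2 (adjusted p = 0.0646) and with limma on TPM (adjusted p = 0.0542), with HEK the higher line each time. PMAIP1 lies on chromosome 18 from 59899996 to 59904305 on the plus strand and overlaps no other gene of the files.

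BID links the death receptors to the mitochondria, since caspase-8 cuts its protein into the active form. It was measured at 26.3 and 21.2 CPM in pure HEK and at 50.6 and 50.0 CPM in pure Jurkat. The Jurkat libraries lay close together and above both HEK libraries. The log2 fold change was -1.31 (SE 0.221, adjusted p = 0.00875), and the call was lost without HEK library 2 (adjusted p = 0.0808). The gene lies on chromosome 22 from 17734138 to 17774770 on the minus strand.

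BCL2L1 encodes BCL-xL and, by another splice form, the death-promoting BCL-xS. It was a low gene in all libraries, with 2.33 and 2.44 CPM in pure HEK and 6.04 and 5.96 CPM in pure Jurkat. The SD between replicates was 0.0802 CPM in HEK and 0.0554 CPM in Jurkat, and the log2 fold change was -1.55 (SE 0.291, adjusted p = 0.0118). Only 22 and 37 counts in HEK and 27 and 37 counts in Jurkat stood behind it. The call was lost without either HEK library (adjusted p = 0.106 and 0.102) and with DESeq2 (adjusted p = 0.0634). BCL2L1 spans 31664452 to 31723989 on the minus strand of chromosome 20, and the long noncoding gene ABALON, which overlaps it on the other strand, had up to 146 counts in a library. Genes on the other strand also overlap BAD (GPR137, up to 173 counts) and BCL2L11 (MIR4435-2HG, up to 144 counts). The libraries were made strand-specific, but whether strand was used in counting is not given in the sources used here.

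BCL2 itself leaned the same way as BCL2L1 but with a wide spread. It was found at 4.02 and 8.38 CPM in pure HEK and at 17.0 and 10.8 CPM in pure Jurkat. The lines did not overlap, but the SD between replicates was 3.08 CPM in HEK and 4.39 CPM in Jurkat. The log2 fold change of -1.35 (SE 0.441) did not pass, with an adjusted p of 0.0578. It passed with no filter on low counts (adjusted p = 0.00241), when all 14 libraries shared the estimate of the spread (adjusted p = 0.0393) and without HEK library 2 (log2 fold change -1.98, adjusted p = 0.0415). Without HEK library 1 the log2 fold change was -0.91 (adjusted p = 0.198).

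MCL1, whose protein is known for rapid turnover, was at 52.7 and 48.4 CPM in pure HEK and at 48.8 and 33.0 CPM in pure Jurkat. The lines overlapped, and the log2 fold change was 0.08 (SE 0.257, adjusted p = 0.815). The effectors were among the lowest of the 10 genes and did not pass either. BAX was at 4.13 and 1.72 CPM in pure HEK and at 3.58 and 3.55 CPM in pure Jurkat, with a log2 fold change of -0.55 (SE 0.513, adjusted p = 0.426). BAK1 was at 2.64 and 2.44 CPM in HEK and at 1.79 and 2.58 CPM in Jurkat, with a log2 fold change of -0.03 (SE 0.382, adjusted p = 0.952). For both effectors the lines overlapped, and 8 to 39 counts a library stood behind these values.

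The last BH3-only genes showed no difference that the test could see. BAD, whose protein is held back by survival kinases through phosphorylation, was at 26.4 and 29.6 CPM in HEK and at 28.2 and 29.7 CPM in Jurkat (log2 fold change -0.27, SE 0.208, adjusted p = 0.335). BCL2L11, a target of FOXO factors whose protein BIM is needed for the death of many lymphocytes, was at 11.1 and 12.9 CPM in HEK and at 11.4 and 13.1 CPM in Jurkat (log2 fold change -0.26, SE 0.233, adjusted p = 0.414). In counts simulated for this comparison with 15168 genes tested, 2% of 50 genes changed 2-fold were called and 76% of 50 changed 4-fold. The simulation gave 145 calls in all, whereas the data gave 3825 genes called higher in HEK and 3002 higher in Jurkat. With fewer calls the adjustment is stricter, so the simulated rates do not carry over to the data. A 2-fold difference in any of the 6 genes that did not pass may have been missed, but how often cannot be read from these rates.

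**Figure D1:**
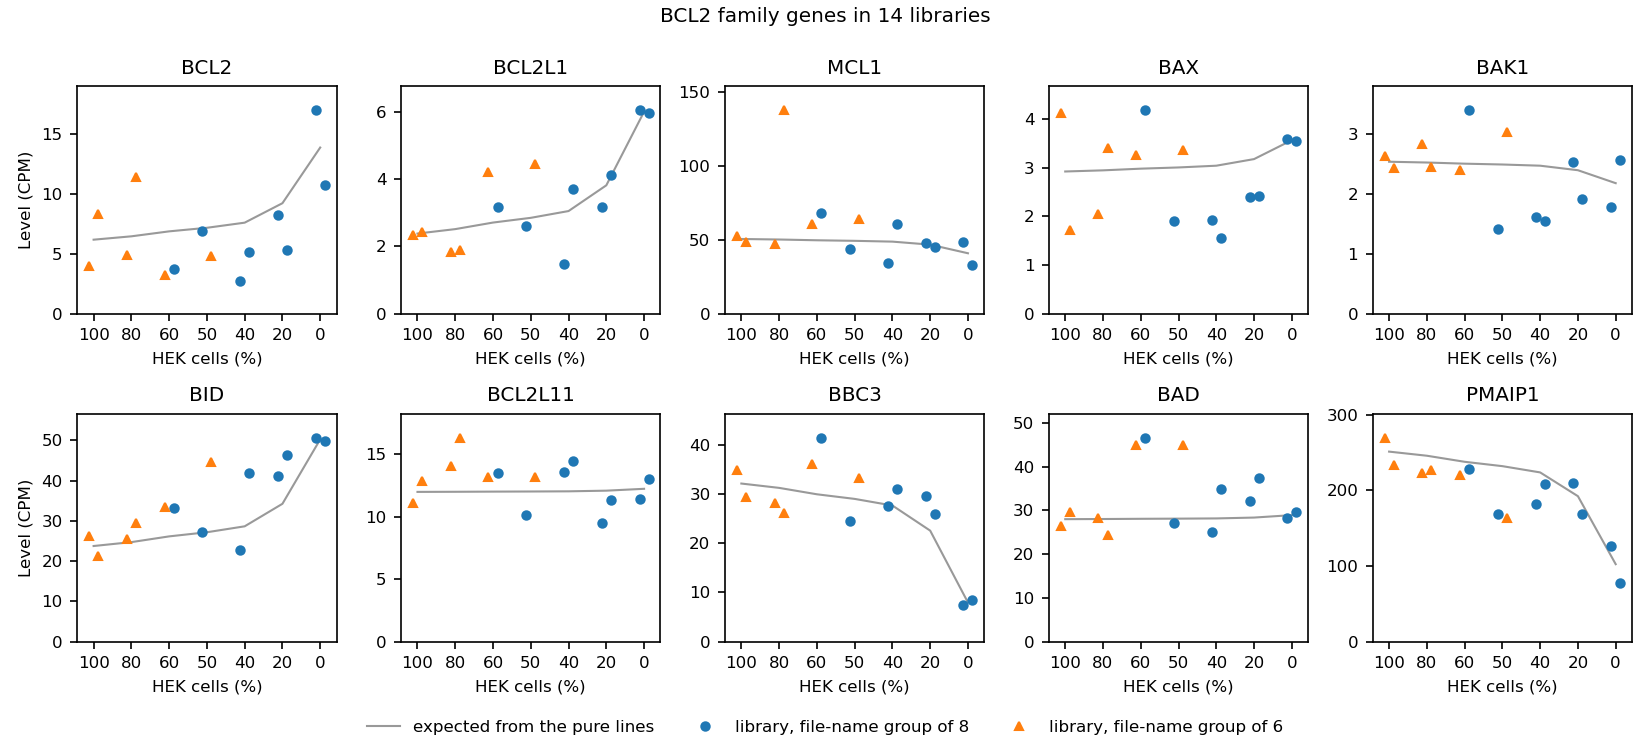
Level in CPM (vertical axes, from 0) of the 10 BCL2 family genes against the percentage of HEK cells (horizontal axes). Each point is 1 library, its shape and colour give the file-name group, and the grey line is the level expected from the pure lines. BBC3 stays between 24.6 and 41.4 CPM in all 10 mixed libraries and drops to 7.38 and 8.54 CPM only in pure Jurkat, and MCL1 has 1 high library at 137 CPM.

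All these values are relative to the gene counts of a library, and the spike-ins give another scale. The pure HEK libraries held on average 10.0 times as many gene counts per spike-in count as the pure Jurkat libraries. The 2 pure HEK libraries stood at 147 and 97.3 gene counts per spike-in count and the 2 pure Jurkat libraries at 12.1 and 12.3. The replicates with 80% HEK cells differed more, at 46.6 and 123. From the pure samples and their spike-ins the paper reported a smaller ratio. In bulk samples, fewer cells of a type and less RNA per cell cannot be told apart from such values alone, but each sample here was made from 1000000 cells. Because the spike-ins were added after mRNA capture, losses during capture are not covered by them. Scaled to the spike-ins, all 10 genes were higher in pure HEK and all 10 passed the test, while 92.5% of all genes tested were then called higher in HEK and calls in that direction made up 96.6% of all calls. BCL2, BCL2L1, BAX, BAK1, BID, BAD and BCL2L11 thereby turned from lower to higher in HEK.

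On this scale BBC3 gave 2.86 and 5.16 counts per 1000 spike-in counts in pure HEK and 0.0892 and 0.105 in pure Jurkat, a ratio of means of 41.3. PMAIP1 followed with a ratio of 25.0, MCL1 with 12.5 and BAK1 with 11.8. The lowest ratios were those of BCL2L1 with 3.97, BCL2 with 4.16 and BID with 4.85. The order of the genes was the one seen on the library scale, and it is relative to the median of all genes that the scales can be compared. Scaling by spike-ins moved the median log2 fold change of all genes tested from 0.07 to 3.61. Relative to that median, BBC3 stood 1.75 above with spike-ins and 1.71 above with library totals, PMAIP1 1.04 and 1.00 above, and BCL2L1 at -1.65 and -1.62. A change of scale multiplies all genes of a library by 1 factor. The order and the distances from the median are therefore nearly kept by arithmetic and are no separate support. Plain gene totals without the TMM factor moved the median to 0.29 and the share of calls that were higher in HEK from 56.0% to 66.2%, with the same 4 of the 10 genes called.

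**Figure D2:**
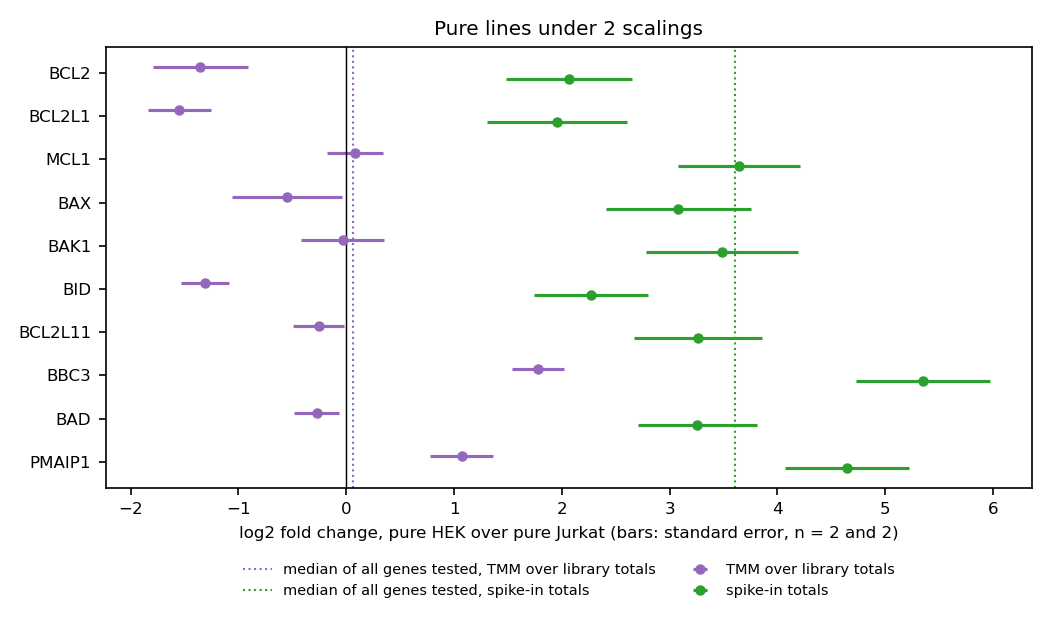
The log2 fold change of pure HEK over pure Jurkat (horizontal axis) for the 10 genes, with bars of 1 standard error, from library totals with TMM factors (purple) and from spike-in totals (green). The dotted lines give the median of all genes tested, 0.07 and 3.61. BBC3 and PMAIP1 lie to the right of the dotted line and BCL2, BCL2L1 and BID to the left of it under both scalings. A change of scale multiplies all genes of a library by 1 factor, so these sides could hardly differ.

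Levels of different genes were compared in TPM, which divides counts by the transcript length that RSEM estimated and is scaled to 1000000 over genes. Where counts do not grow with length, as may hold after oligo(dT) priming, TPM favours short genes and does not count transcripts. PMAIP1 had the highest TPM of the 10 genes in 13 of 14 libraries, with 190 and 165 TPM in pure HEK, and BID had it in the remaining one, pure Jurkat library 2, where BID stood at 75.7 and PMAIP1 at 61.6 TPM. In pure HEK the order then ran over BAD (mean 50.9 TPM), BID (36.2), BBC3 (24.3) and MCL1 (13.9) to BCL2L11, BAX, BCL2, BAK1 and BCL2L1, which lay between 1.01 and 4.16 TPM. In pure Jurkat the same 5 genes led, in the order PMAIP1 (82.9 TPM), BID (73.6), BAD (56.3), MCL1 (17.0) and BBC3 (6.43).

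BH3-only transcripts made up most of the summed TPM of the 10 genes. The sensitizers BAD and PMAIP1 together held 72.3% to 73.2% of the summed TPM of the 10 genes in pure HEK and 51.6% to 57.9% in pure Jurkat. The activators BID, BCL2L11 and BBC3 held 20.2% to 21.0% in HEK and 29.6% to 38.2% in Jurkat. The survival genes held 4.98% to 5.54% and 7.63% to 10.9%, and the effectors 1.08% to 1.72% and 1.61% to 2.59%. These shares add to 100% in a library, so that a high PMAIP1 lowers the others, and they depend on the transcript lengths that RSEM estimated. The libraries were primed from oligo(dT), so that counts need not grow with transcript length, and the shares differed on the scale of CPM, which is not divided by length. There the survival genes held 13.6% to 15.2% of the summed CPM of the 10 genes in pure HEK and 21.2% to 23.8% in pure Jurkat, the sensitizers 67.5% to 68.1% and 45.8% to 51.4%, the activators 16.3% to 16.7% and 23.0% to 30.4%, and the effectors 1.07% to 1.56% and 1.78% to 2.6%. In pure HEK, the CPM of MCL1 was above those of BBC3, BAD and BID in both libraries, whereas its TPM was below theirs. RSEM's estimated length of MCL1 was 2199 bases in pure Jurkat library 1 and 3564 to 3650 bases in the other pure libraries. The MCL1 TPM of that library, 24.2 against 9.79 in Jurkat library 2, differed more than its CPM did. The estimated length of BCL2 ran from 2288 to 5708 bases over the libraries, whereas that of BAK1 was 2132 bases in all.

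**Figure D3:**
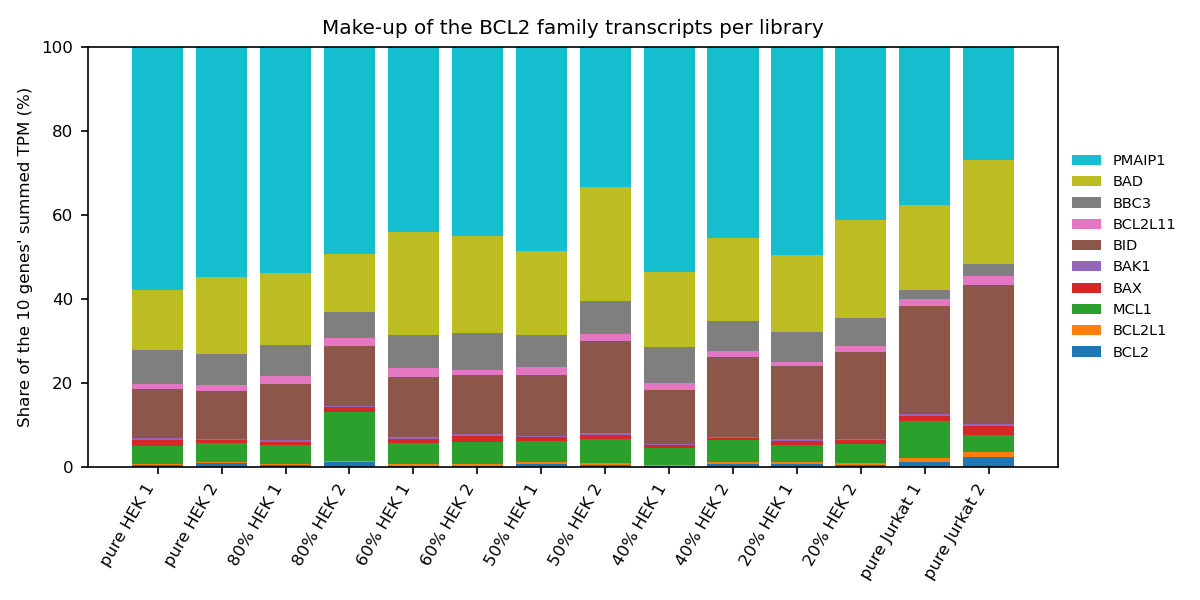
Share of the summed TPM of the 10 genes held by each gene (stacked bars, vertical axis in percent) in each of the 14 libraries. PMAIP1 is the largest segment in 13 libraries, BID is wider in the pure Jurkat libraries than in the pure HEK libraries, and MCL1 is widest in 80% HEK library 2.

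To place the mixtures between the lines, the HEK share of RNA in each library was estimated from 738 genes over 8-fold higher in HEK and 503 genes over 8-fold higher in Jurkat, none of them among the 10 genes. It was 96.4% and 96.3% in the libraries with 80% HEK cells, 91.1% and 90.8% with 60%, 86.4% and 87.8% with 50%, 81.3% and 81.8% with 40%, and 60.0% and 60.8% with 20%. The share expected from the spike-ins was 97.6%, 93.8%, 90.9%, 87.0% and 71.5% for these mixtures. The shares from genes of one line were below it in all 10 mixed libraries. They thus correspond to a smaller ratio of RNA per cell than the 10.0 from the spike-ins.

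For BBC3, all 10 mixed libraries, from 24.6 to 41.4 CPM, lay above both pure Jurkat libraries, and the libraries with 20% HEK cells were at 29.6 and 26.0 CPM, near the 29.4 CPM of pure HEK library 2. The order of the mixtures was not that of their HEK percentage, since the mean was highest at 60% HEK (38.8 CPM) and lowest, above pure Jurkat, at 80% (27.2 CPM). PMAIP1 lay between the lines in all 10 mixed libraries, from 163 to 228 CPM, below both pure HEK and above both pure Jurkat libraries. Its mean was 251 CPM in pure HEK, 225 CPM at 80% HEK and 224 CPM at 60%, with the last pair overlapping, and it was lowest among the mixtures at 50% HEK (166 CPM).

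BID did not pass the trend test in the mixtures. It was at 25.4 and 29.5 CPM with 80% HEK cells, 33.5 and 33.2 CPM with 60%, 27.3 and 44.7 CPM with 50%, 22.8 and 41.9 CPM with 40%, and 41.3 and 46.4 CPM with 20%. All 10 mixed libraries lay below both pure Jurkat libraries, and 8 of 10 lay above both pure HEK libraries. BCL2L1 was also below both pure Jurkat libraries in all 10, at 1.47 to 4.45 CPM, but its replicates at 40% HEK stood at 1.47 and 3.72 CPM. BCL2 was below both pure Jurkat libraries in 9 of 10, at 2.70 to 11.5 CPM, and only 80% HEK library 2 exceeded the lower of them.

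None of the 10 genes passed the test for a trend with the HEK percentage over the 10 mixed libraries, in which 0.528% of 17242 genes rose and 5.08% fell with edgeR's quasi-likelihood fit. At an unadjusted p under 0.05 there were 2 of 10, MCL1 and BID, against 3090 of all genes. The fitted log2 change from 20% to 80% HEK was 0.93 (SE 0.353, adjusted p = 0.181) for MCL1 and -0.67 (SE 0.234, adjusted p = 0.144) for BID. DESeq2 called none of the 10 either. For BID alone the call appeared without 40% HEK library 1 (adjusted p = 0.0364). The changes that the RNA shares allow over this range are small, as they come to a log2 of -0.47 for BID, 0.47 for BBC3, 0.35 for PMAIP1, -0.51 for BCL2 and -0.60 for BCL2L1. Of the markers, only 1 of 12 HEK genes passed in this trend, while 12 of 12 Jurkat genes did. Scaled to the spike-ins, 8 of the 10 genes rose with the HEK percentage, while 78.2% of all genes tested rose. On that scale the fitted changes of BCL2L1, BID and BAD turned from negative to positive, with BAD past the threshold.

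The trend of MCL1 rested on 1 library. It was at 137 CPM in 80% HEK library 2 and at 46.9 CPM in its replicate, whereas the other 9 mixed libraries spanned 34.3 to 67.9 CPM. The high value rested on 2016 counts. Within the pair it was 2.93-fold, and MCL1 ranked 35th of 8995 genes with a mean of at least 10 CPM, of which 116 were over 2-fold higher in library 2 and 83 in library 1. BCL2 was also higher in that library, at 11.5 against 4.88 CPM, and BAX at 3.41 against 2.04 CPM. BID, BCL2L11, BCL2L1 and PMAIP1 were higher there as well, while BAK1, BAD and BBC3 were lower. Without that library the MCL1 trend fell to a log2 of 0.23 (adjusted p = 0.815). The part of the library as a whole in these values was not tested.

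Against the level expected from the pure lines and the RNA share, 5 of the 10 means lay within the quartiles of all genes compared. By definition the quartiles hold that same share of all genes. The means of BCL2, BAX, MCL1, BID and BAD lay outside them. This comparison has no p-value, because the test planned for it called 32.5% of unchanged genes in simulated counts. The mean log2 of observed over expected CPM over the 10 mixed libraries ran from -0.52 for BCL2 to 0.26 for BID, and among 13822 genes with at least 2 CPM in the pure libraries the quartiles of this mean were -0.19 and 0.12. Among those genes, the mean of BCL2 stood at percentile 6.55 and that of BAX at 18.5, while MCL1 stood at 87.1, BAD at 91.2 and BID at 91.7. Single libraries moved some genes across these quartiles. Without 80% HEK library 2 the mean of MCL1 was 0.07, and without 40% HEK library 2 that of BAX was -0.18, both inside. The mean of PMAIP1 was outside without 20% HEK library 1 (-0.22), 60% HEK library 2 (-0.201) or 40% HEK library 2 (-0.195). That of BBC3 was outside without 80% HEK library 1 (0.132), 80% HEK library 2 (0.144) or 50% HEK library 1 (0.141). BCL2L11 was outside without 50% HEK library 1 (0.122) or 20% HEK library 1 (0.133). BAK1 was outside without 60% HEK library 2 (-0.222) or 50% HEK library 2 (-0.205). Of the 5 genes inside, only BCL2L1 stayed inside each time. BCL2 was below expectation in 9 of 10 libraries and PMAIP1 in 9 of 10, with means of -0.52 and -0.19 and a pooled SD between replicates of 0.553 and 0.124. BID lay above in 8 of 10 and BAD in 7 of 10, with means of 0.26 and 0.26.

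**Figure D4:**
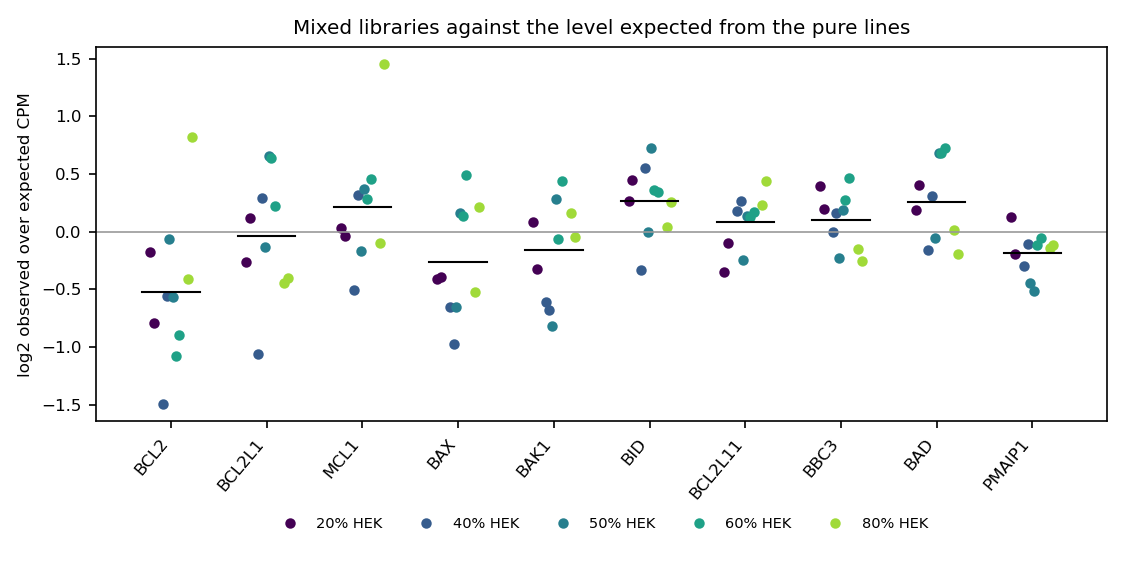
The log2 of the observed CPM over the CPM expected from the pure lines (vertical axis) for the 10 genes in the 10 mixed libraries, coloured by the percentage of HEK cells, with the mean as a black bar. PMAIP1 is below 0 in 9 of 10 libraries and runs from -0.51 to 0.13, while BCL2 runs from -1.50 to 0.82 and MCL1 reaches 1.45 in 80% HEK library 2.

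The replicates differed for some genes in the pairs at 50% and 40% HEK. In 50% HEK library 2, from the file-name group of 6, BID, BAD, BCL2L1, BAX and BAK1 were at 44.7, 45.0, 4.45, 3.35 and 3.05 CPM, and in 50% HEK library 1, from the group of 8, at 27.3, 27.0, 2.61, 1.91 and 1.41 CPM. MCL1 was at 63.9 against 43.8 CPM and BBC3 at 33.4 against 24.6 CPM, while BCL2 was lower in library 2, at 4.82 against 6.92 CPM. In all, 8 of the 10 genes were higher in library 2, and 5 of the 10 were so over 1.5-fold. Of all 15864 genes with a mean of at least 1 CPM in the pair, 62.6% were higher there. The share of the 15864 genes over 1.5-fold higher there was 35.2%. Library 1 of this pair was the deepest of all, with 28303668 gene counts against 16404261.

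Between the libraries with 40% HEK, both of the group of 8, BID was at 22.8 and 41.9, MCL1 at 34.3 and 60.9, BCL2L1 at 1.47 and 3.72 and BCL2 at 2.70 and 5.17 CPM, and these were the 4 genes over 1.5-fold higher in library 2. BAX and BAK1 were higher in library 1. Here 8 of the 10 genes were higher in library 2, against 63.1% of 15813 genes. The share of all 15813 genes over 1.5-fold higher there was 25.4%. Within the 4 mixed libraries of the group of 6 and within the 6 of the group of 8, none of the 10 genes passed the trend test. Neighbouring mixtures overlapped in most places, since of the 6 steps in the order of mean level, 6 overlapped for BCL2 and MCL1, 5 for BAX, BAK1, BID and BAD, 4 for BCL2L1, BCL2L11 and BBC3 and 3 for PMAIP1.

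The genes whose levels ran most like those of the 4 called genes were found among 11414 genes with a mean of at least 5 CPM, by Pearson's r of log2(CPM + 1) over the 14 libraries. For BBC3 they were MRPL40 (r = 0.989), ADRA2C (0.988) and SRSF12 (0.985), and for PMAIP1 CLPB (0.953), PALS2 (0.949) and COPS7A (0.942). For BID they were DPP3 (0.973), CCM2 (0.96) and COTL1 (0.957), and for BCL2L1 IFITM1 (0.949), KDM2B (0.944) and MSMO1 (0.93). The 14 points share 2 pure profiles and their mixing, so that any gene differing between the lines gives a high r with others that do.

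Of the 11 further genes of the family, 6 had enough counts to be tested, of which 2 were higher in HEK and 1 in Jurkat, with a median log2 fold change of 0.67. This count and those of the lists that follow are to be read against all genes tested. Of these, 24.2% were called higher in HEK and 19.0% higher in Jurkat. BCL2L2, which encodes the survival protein BCL-w, was at 12.0 CPM ± 1.17 (SD, n = 2) in HEK and 0.788 ± 0.481 in Jurkat (log2 fold change 3.60). HRK, a BH3-only gene known from neurons, was at 28.5 ± 5.38 and 1.90 ± 1.42 CPM (3.60). BIK, another BH3-only gene, was at 0.344 ± 0.113 and 3.84 ± 1.63 CPM (-3.73), and it was the only one of these called in the trend. BCL2A1, BCL2L10, BCL2L14, BCL2L15 and BOK were too low to be tested between the pure lines, and BCL2A1 and BCL2L10 had at most 3 counts in every pure library.

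Downstream of the family, in the apoptosome and caspase step, 1 of 15 genes was higher in HEK and 4 were higher in Jurkat, with a median log2 fold change of -0.30. BIRC3, an inhibitor of apoptosis induced by NF-kappaB, was at 0.753 ± 0.132 CPM in HEK and 73.0 ± 1.27 CPM in Jurkat (log2 fold change -6.82, SE 0.285, adjusted p = 0.00064). CASP6, an effector caspase gene, was higher in Jurkat (-1.36), and ENDOG, a mitochondrial nuclease, was higher in HEK (1.28). Of 7 genes of mitochondrial membrane partners, 1 was called, the mitophagy receptor gene BNIP3L (-1.78).

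Of 15 genes whose products act on the family's proteins, 1 was higher in HEK and 4 were higher in Jurkat. CASP8, whose protein cuts BID, was at 6.61 ± 0.384 CPM in HEK and 77.4 ± 4.72 CPM in Jurkat (log2 fold change -3.78, SE 0.227, adjusted p = 0.000669), in the same direction as BID. FBXW7, the ubiquitin ligase subunit that marks MCL1 for destruction (-1.33), and GSK3B, the kinase that prepares MCL1 for it (-1.24), were higher in Jurkat, while MCL1 itself did not pass. PIM1, a kinase that phosphorylates BAD, was higher in HEK (1.03), while BAD did not pass.

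Of 14 transcription factors known to act on genes of the family, 5 were higher in HEK and 5 in Jurkat. JUN, a part of the AP-1 factor, was higher in HEK (4.18), and TP73 gave 19 and 49 counts in HEK against 1 and 2 in Jurkat, a ratio of 9.83 with a 95% exact counting interval of 3.22 to 48.8. MYB, which drives BCL2 in hematopoietic cells, was higher in Jurkat (-5.16). STAT5A, a factor of cytokine signalling that acts on BCL2L1, had no count in either HEK library and 130 and 157 counts in Jurkat, which is at least 221-fold higher in Jurkat against a floor of 3 counts over both HEK libraries. Counting intervals cover counting error only.

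**Figure D5:**
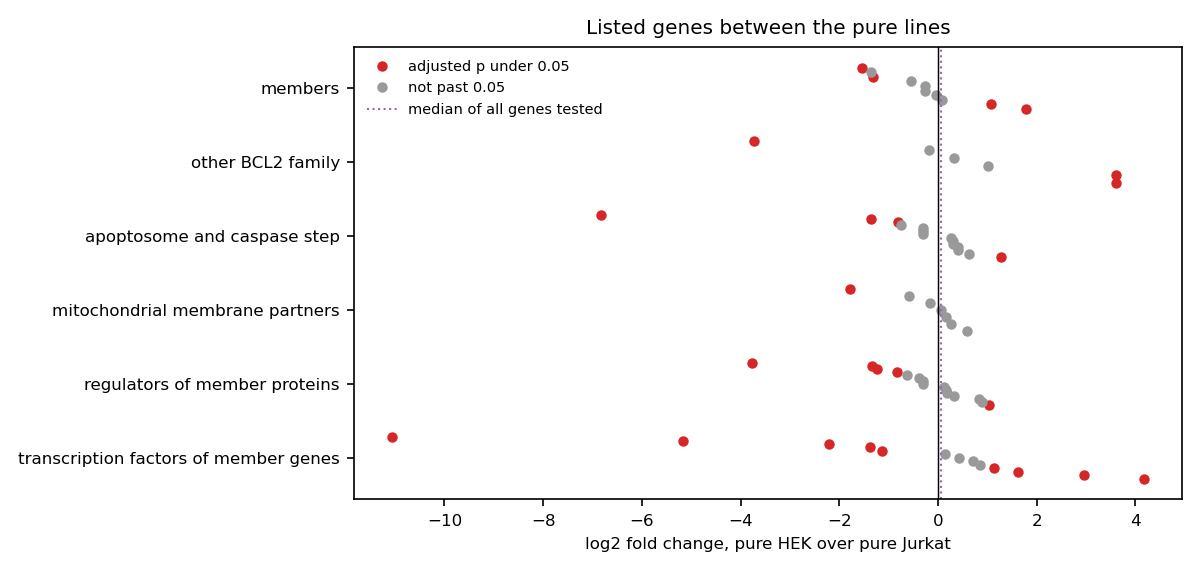
The log2 fold change of pure HEK over pure Jurkat (horizontal axis) of the genes shown, by gene list, in red where the adjusted p was under 0.05 and in grey where it was not. The dotted line is the median of all genes tested, 0.07, and the family's 10 genes span -1.55 to 1.78 while BIRC3, in the caspase step, lies at -6.82 and JUN, among the transcription factors, at 4.18. The fitted value of STAT5A at the far left depends on the prior count, since its HEK libraries had no counts.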

How the data were processed

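The authors aligned reads to GRCh38 with the ERCC sequences added (STAR 2.6.1b) and estimated counts per gene (RSEM 1.3.1), per the labels. Each deposited file holds these expected counts without normalization and, beside them, TPM over genes plus spike-ins. The deposited series table repeats the expected counts and was not used. Counts were rounded to whole numbers, CPM were taken over genes without spike-ins, and TPM were rescaled over genes. Symbols and positions came from GENCODE release 44 by identifier without version, which matched 57754 of 58440 genes, and unmatched ones held at most 0.327% of counts. Depth limits the precision of low genes, as 3 counts are 0.106 to 0.671 CPM.

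Tests used edgeR 4.0.16 (glmQLFit and glmQLFTest, TMM, filterByExpr) in R 4.3.3 with Benjamini-Hochberg adjustment over all genes at 0.05. One compared the 2 pure HEK with the 2 pure Jurkat libraries, and one fitted the HEK percentage over the 10 mixed libraries. Alternatives used other scalings, no filter, DESeq2 1.42.0, limma 3.58.1 on log2(TPM + 1), other sets of libraries and each library left out. In simulated counts, 12 of 145 calls between the pure lines were unchanged genes, and in the trend 10 of 154. With 16970 genes in the trend, calls reached 8% of 50 genes at a 2-fold change and 84% of 50 at a 4-fold change.

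The planned test of additive mixing, an intercept over an offset, leaves out the error of the pure means. In simulated counts it called 4828 unchanged genes of 14865, so its p-values were not used. Its least-squares HEK share of RNA missed the simulated share by 7.42 percentage points, against 0.411 for genes of one line (adjusted p under 0.05, over 8-fold, at least 10 CPM), which replaced it after both were seen. Expected CPM had a lowest value of 0.2.

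The 10 genes and all lists were chosen with earlier results of these data known. Named were all 10 genes, up to 4 called genes with the largest log2 fold change from each other list, and the 3 genes most like each called gene. Further genes were named after their values were seen: CD3E, CD247, ZAP70, CD28, CD5 and the genes too low to be tested. Some genes and 1 list that this rule covers are not reported here.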

Additional observations from a re-analysis of the deposited data

How the results depend on the processing

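With 2 libraries a line and shallow pure Jurkat libraries, low genes such as BAX, BAK1 and BCL2L1 are limited by their counts. In simulated counts, where far fewer genes were called than in the data, the test between the pure lines missed most 2-fold changes. No paired analysis was possible because the replicate numbers only name libraries in accession order and carry no pairing. Between the pure lines, 4 of the 10 genes were called, 3 with DESeq2 and with limma on TPM, 5 without a filter and with all 14 libraries, and 10 with spike-in totals. Of all genes tested, 3825 were called higher in HEK and 3002 higher in Jurkat of 15794 in the main test. These counts were 3113 and 2622 of 31686 with DESeq2, with 11671 left without an adjusted p, and 3783 and 2178 of 15794 with limma. They were 5352 and 3550 of 31686 without a filter and 4556 and 3429 of 19129 with all 14 libraries. Leaving out 1 pure library left 1 library for that line. Fewer of all genes tested were then called each time, so losses among the 10 genes are to be read against that. In the trend, none of the 10 genes was called except 8 with spike-in totals, and 0 to 1 with 1 mixed library left out. With spike-in totals the sign between the pure lines turned for BCL2 (2.07), BCL2L1 (1.96), BAX (3.08), BAK1 (3.49), BID (2.27), BAD (3.26) and BCL2L11 (3.26), and in the trend for BCL2L1 (0.99), BID (1.20) and BAD (1.53), which follows from the scaling. BCL2 passed with no filter (-1.19) and with all 14 libraries (-1.37), and ran from -1.98 to -0.91 with 1 pure library left out, past the threshold without HEK library 2 only. BAK1, near 0, also turned with gene totals (0.19), no filter (0.12), DESeq2 (0.017) and limma on TPM (0.076), and MCL1 with limma on TPM (-0.15). With 1 pure library left out, BAX ran from -1.24 to 0.0034 (positive without HEK library 2), BAK1 from -0.26 to 0.29 (positive without HEK library 2 or Jurkat library 2) and MCL1 from -0.16 to 0.37 (negative without Jurkat library 2). In the trend, none of the sign changes below came with a call. The 4 mixed libraries of the file-name group of 6 held 50% to 80% HEK cells, and the 6 of the group of 8 held 20% to 60%. Their changes are scaled to the step from 20% to 80% and so reach beyond the mixtures they hold. BBC3 turned with only the 20% and 80% libraries (-0.062) and within the 4 mixed libraries of the group of 6 (-0.31). With 1 library left out BBC3 ran from -0.080 (without 20% HEK library 2) to 0.21, negative also without 60% HEK library 2. BAX turned within the 4 mixed libraries of the file-name group of 6 (-0.24). BCL2 (-0.90) and BAD (0.18) turned within the 6 mixed libraries of the file-name group of 8. Without 80% HEK library 2 BCL2 and BAD turned as well. With 1 library left out BCL2 ran from -0.66 to 0.71 and BAD from -0.30 to 0.037. The cause of these changes was not tested. The comparisons within a file-name group and the share from genes of one line were chosen after seeing the data. Over all lists other than the 10 genes and the markers, 35 genes were called between the pure lines. This count includes 1 list not reported here, so it is larger than that of the lists above. It ran from 30 with DESeq2 to 38 with gene totals. Observed over expected moved by less than the replicate SD for all 10 genes under each other share, a lowest expected level of 1 CPM and each library left out, and its test was not run under any alternative. That SD is of single libraries and not of the mean, and the mean of MCL1 moved from 0.21 to 0.07 without 80% HEK library 2.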
